A study of Mus musculus with 6 samples.

Results

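Interferon-stimulated genes are the genes that cells switch on after interferon, together with the sensors and transcription factors that drive and carry that response. A list of 41 such mouse genes was followed here, all of which had a row among the 24190 genes of the count table. They were taken by name, and Cgas, Tmem173 (the gene of STING) and Ddx58 (the gene of RIG-I) were found under these symbols. RNA sequencing had been done on MTO54, a single mouse tumor organoid (MTO) line of AKP genotype, whose tumor alterations control and treated cultures shared. Control organoids were kept in complete stem cell medium (n = 3). Folfiri organoids received 5FU (fluorouracil) at 50 μg/μl, the unit as the labels write it, together with SN38 at 100 nM (n = 3). SN38, the active metabolite of irinotecan, blocks topoisomerase I. Treatment began 2 days after seeding of single cells in basement membrane extract and lasted 2 days by the sample labels and the methods, whereas a figure legend of the study gives a longer treatment. The 3 samples of a group are named as separate organoid samples of the same line, so p-values measure the spread between cultures of this line and not between tumors. The comparison asked how MTOs respond to chemotherapy, and it is read here for the interferon genes.

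Type I interferons bind a receptor on the cell surface, whose kinases phosphorylate STAT proteins. STAT proteins and Irf9 then form a complex that binds the interferon-stimulated response element in promoters, while interferon gamma acts through STAT dimers on the gamma-activated sequence. Cells make interferon after cytosolic sensors meet foreign or misplaced RNA (RIG-I, MDA5) or DNA (cGAS with STING), and many sensors are themselves interferon-stimulated, so the pathway can amplify its own parts.

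Total counts per sample ranged from 22103591 to 30098210. Control replicate 1 stood apart from the other controls, with a chi-square per degree of freedom over genes of 25.3 and 23.9 against them, beside 4.03 between those controls. Folfiri replicate 3 stood apart less, with 13.3 and 12.8 beside 3.76. Levels are given as CPM, counts per 1000000 after TMM scaling of the libraries, and differences as log2 fold changes of Folfiri against control, in log2 units, with their standard error (SE). A gene was called when the quasi-likelihood test of edgeR gave it an adjusted p under 0.05, and 14692 genes passed the filter on low counts. Of these, 79.1% were called, 40.3% higher and 38.8% lower after Folfiri, so a call by itself was the common outcome. Scaling by total counts alone raised the median of the log2 fold changes over the whole table by 0.28, and small differences depend on that choice. The samples had the marker profile of epithelium, with Epcam at 1252 CPM in controls and 653 CPM after Folfiri. The summed level of 10 epithelial markers ran from 6000 to 6967 CPM in controls and from 4822 to 4996 CPM after Folfiri. Of these 10, 6 fell, with Lgr5 at -2.52 and Cdx2 at -1.53 log2 units, Cdh1 rose by 0.21, and Krt18, Krt20 and Vil1 were not called. Of 14 immune cell markers, 13 had a row and 4 passed the filter, and their summed level ran from 28.4 to 32.2 CPM in controls and from 34.6 to 37.1 CPM after Folfiri. Lyz2, Tyrobp and Siglech, markers of myeloid cells and plasmacytoid dendritic cells, had no more than 2 counts over any group. Of the 4 tested immune markers 3 rose and Cd68 was not called. Ptprc and Adgre1 passed the filter through the Folfiri samples alone, which favours a rise, so this count is a description. Mean levels in controls and after Folfiri were 6.31 and 12.8 CPM for Cd14, 0.396 and 1.06 CPM for Ptprc, and 0.226 and 0.863 CPM for Adgre1. Below the filter, Csf1r went from 0 to 8 counts over the group, Itgam from 0 to 5 and Laptm5 from 1 to 9. Of 8 fibroblast markers 7 had a row and 3 passed the filter, and their summed level ran from 1.08 to 1.44 CPM in controls and from 2.06 to 2.45 CPM after Folfiri. Dcn rose, with 2 counts over the controls and 65 after Folfiri, as did Pdgfra with 28 and 107, while Col1a1 fell, with 60 and 28. Dcn and Pdgfra passed the filter through the Folfiri samples alone and Col1a1 through the controls alone. Each was thus tested through the group where it was higher. The part of these changes in the differences of the interferon genes was not tested. In RNA from whole cultures, a change in the number of cells that express a gene and a change of its RNA per cell cannot be told apart.

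Promoters of the interferon genes were searched for both response elements. Windows of 250 bases before to 50 bases after the start of the gene (RefSeq, GRCm38.p6) were at hand for 31 of the 41 genes, and not for Dhx58, Zbp1, Tmem173, Mx1, Mx2, Ifi27, Rtp4, Usp18, Parp9 and Parp14. The response element was searched as 2 copies of GAAA with 2 bases between, the gamma-activated sequence as TTCNNNGAA, both on either strand, and matches may overlap. The response element was in 36.8% of the 38 windows of these genes, beside 3.44% of all 32851 windows. For the gamma-activated sequence the shares were 18.4% and 8.30%. By gene, 14 of 31 held the response element, 7 the gamma-activated sequence, 18 at least one of them and 13 neither. A match describes these letters only and is not a measured binding site.

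The 6 promoters that follow belong to the called genes with the greatest change that held a match, and are shown because they let the elements be set beside the measured changes. Sequences run 5′ to 3′ along the strand of the gene, and capitals mark the matches. Gbp2 lies on the plus strand at chr3:142620413-142620712 and its response element, read on the other strand, begins 59 bases before the start. Gbp3, on the plus strand at chr3:142559794-142560093, holds 2 overlapping elements in the same orientation. Isg15, on the minus strand at chr4:156200769-156201068, holds 3 overlapping elements from 78 bases before the start. Cxcl10, on the minus strand at chr5:92348840-92349139, holds 1 element 213 bases before the start. Isg20, on the plus strand at chr7:78913174-78913473, and Irf1, on the plus strand at chr11:53769764-53770063, each hold a gamma-activated sequence, 73 and 90 bases before the start. Gbp3 and Irf1 have 2 windows each and Isg20 has 3, and for these genes only the printed window held a match.
Gbp2: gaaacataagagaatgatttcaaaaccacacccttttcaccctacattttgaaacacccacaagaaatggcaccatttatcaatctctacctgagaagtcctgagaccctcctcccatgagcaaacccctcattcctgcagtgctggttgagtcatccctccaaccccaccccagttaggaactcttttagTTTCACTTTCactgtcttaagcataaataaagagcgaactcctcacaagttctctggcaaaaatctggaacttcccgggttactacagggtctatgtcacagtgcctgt
Gbp3: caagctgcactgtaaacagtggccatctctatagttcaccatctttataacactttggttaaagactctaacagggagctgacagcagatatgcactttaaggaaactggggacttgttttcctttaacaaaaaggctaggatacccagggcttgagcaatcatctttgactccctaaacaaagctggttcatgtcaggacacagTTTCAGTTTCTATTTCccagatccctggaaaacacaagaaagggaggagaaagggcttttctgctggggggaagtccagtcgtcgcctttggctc
Isg15: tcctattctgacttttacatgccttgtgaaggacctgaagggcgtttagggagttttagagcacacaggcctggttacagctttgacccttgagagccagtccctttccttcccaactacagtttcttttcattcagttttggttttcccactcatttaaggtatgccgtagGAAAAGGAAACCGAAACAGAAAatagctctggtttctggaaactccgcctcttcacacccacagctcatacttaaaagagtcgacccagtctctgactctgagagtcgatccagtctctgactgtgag
Cxcl10: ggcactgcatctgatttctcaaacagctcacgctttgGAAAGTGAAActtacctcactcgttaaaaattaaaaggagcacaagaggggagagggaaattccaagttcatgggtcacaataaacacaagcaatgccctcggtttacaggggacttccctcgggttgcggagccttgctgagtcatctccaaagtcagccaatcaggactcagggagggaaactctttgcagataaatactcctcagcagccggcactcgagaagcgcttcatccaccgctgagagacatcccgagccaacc
Isg20: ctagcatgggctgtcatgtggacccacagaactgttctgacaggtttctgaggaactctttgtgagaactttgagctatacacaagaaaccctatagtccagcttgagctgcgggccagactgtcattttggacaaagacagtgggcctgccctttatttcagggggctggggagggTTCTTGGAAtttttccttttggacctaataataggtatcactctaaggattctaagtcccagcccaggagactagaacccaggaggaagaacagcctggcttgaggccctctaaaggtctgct
Irf1: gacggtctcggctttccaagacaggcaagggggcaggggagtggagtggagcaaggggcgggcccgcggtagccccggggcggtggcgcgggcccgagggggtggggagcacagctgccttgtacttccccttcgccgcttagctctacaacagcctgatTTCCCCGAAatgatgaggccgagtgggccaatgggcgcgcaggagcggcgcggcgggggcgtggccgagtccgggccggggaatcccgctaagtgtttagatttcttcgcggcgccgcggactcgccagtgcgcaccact

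Of the 41 genes, 31 passed the filter on low counts. After Folfiri 17 of them rose, 5 fell and 9 were not called, and the 17 were 54.8% of the 31, beside 40.3% higher and 38.8% lower among all tested genes. With scaling by total counts, 22 rose and 2 fell. The rise was at least 2-fold for 14 genes and the fall for 1, beside 19.5% and 16.8% of all tested genes. Gbp2, Xaf1, Gbp3 and Isg15 had the greatest rises, and Stat2, Irf7, Ifih1, Isg20 and Herc6 were the genes that fell. Over the 31 genes the median was 0.70 log2 units, beside 0.02 over all tested genes. Without control replicate 1, 17 rose, 4 fell and the median was 0.85, and without Folfiri replicate 3, 17 rose, 5 fell and it was 0.65. Gbp2, Gbp3, Isg15, Xaf1, Dhx58 and Ddx60 passed the filter through their Folfiri samples alone. This route favours genes that are higher after Folfiri, so counts over the tested genes are a description. Of these genes the first 4 rose, and Dhx58 and Ddx60 were not called. Among the 25 genes that passed in both groups, 13 rose, 5 fell and 7 were not called, beside 38.5% higher among the 13043 genes of the whole table that did so. Among the 12 with a control level of at least 10 CPM, 5 rose, 3 fell and 4 were not called, with a median of 0.17 log2 units, beside -0.13 over all genes at that level. The 5 were 41.7% and the called genes 66.7% of these 12, beside 34.4% higher and 80.7% called among those 9185 genes of the table. Control and Folfiri samples did not overlap for 23 of the 31 genes, or 74.2%, beside 81.4% of all tested genes. Cgas, Oasl1, Eif2ak2, Ifi35, Usp18, Herc6, Parp14 and Rtp4 share exon bases with predicted genes, Dhx58 with its antisense gene, and Gbp2 and Sp100 with small RNA genes, and their counts are uncertain to that extent.

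**Figure D1:**
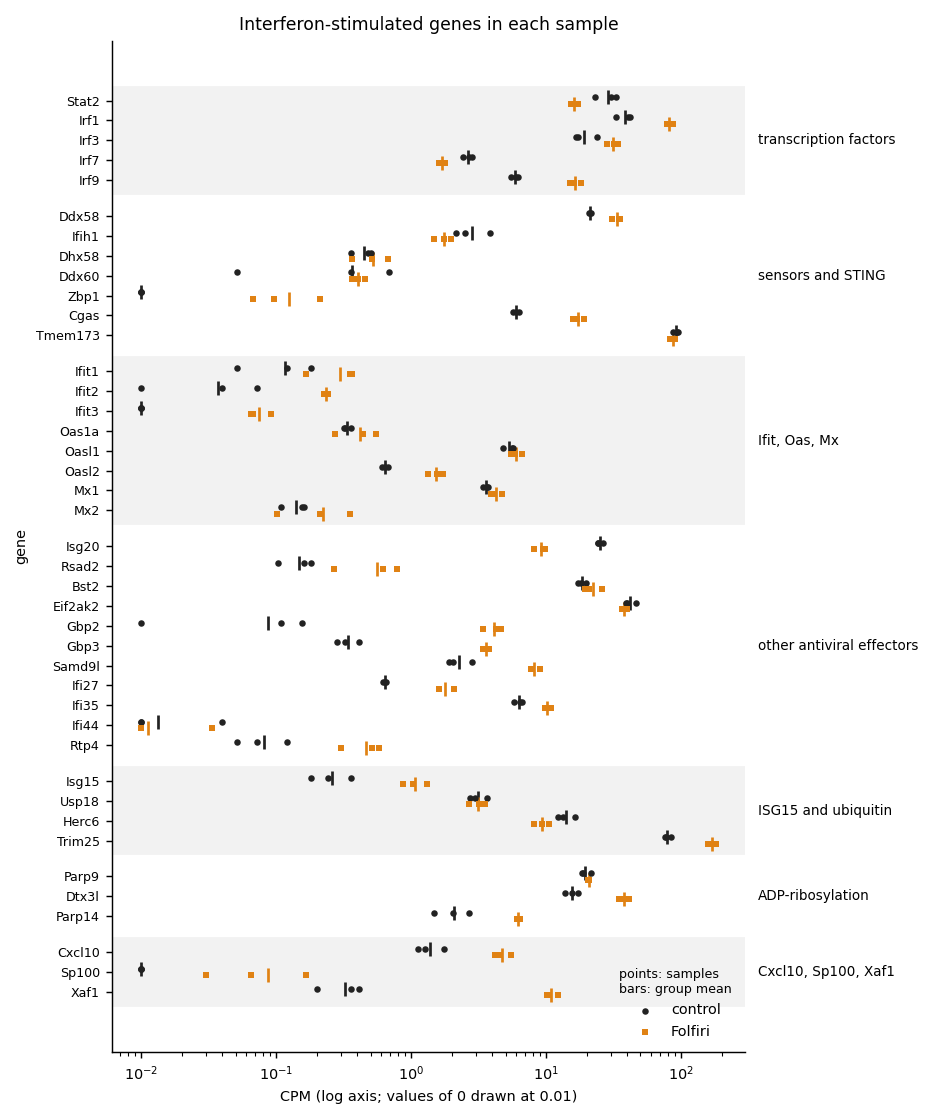
CPM of the 41 interferon-stimulated genes in each of the 6 samples on a log axis, with points for samples, bars for group means and values of 0 drawn at 0.01. Xaf1, Gbp2 and Gbp3 show the widest gaps between control and Folfiri samples among genes above 1 CPM after treatment, while Tmem173, Eif2ak2 and Usp18 show overlapping samples.

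Among the 5 transcription factors, Irf1, Irf3 and Irf9 rose while Stat2 and Irf7 fell. Irf9, the DNA-binding part of the complex that acts downstream of type I interferon, was at 5.47, 6.24 and 6.02 CPM in control replicates 1, 2 and 3 and at 16.1, 15.0 and 18.1 CPM in Folfiri replicates 1, 2 and 3. Its log2 fold change was 1.48 (SE 0.118, adjusted p = 9.10e-07), with all Folfiri samples above all controls. Irf9 shares exon sequence with Rnf31 on the same strand, so its level is uncertain to that extent. Stat2, the partner of Irf9 in that complex, went the other way, from 23.1, 30.2 and 33.2 CPM to 17.1, 15.7 and 15.2 CPM. For Stat2 the difference was -0.84 log2 units (SE 0.128, adjusted p = 0.000117), and its control samples spread more widely than those after Folfiri. The promoter of Stat2 held a response element, and neither window of Irf9 held a match.

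Irf1, a factor induced by interferon gamma and by NF-kB whose promoter is printed above, was at 32.9, 40.2 and 42.0 CPM in controls and at 78.9, 78.5 and 86.7 CPM after Folfiri. Irf1 differed by 1.09 log2 units between the groups (SE 0.0989, adjusted p = 2.38e-06), about the same in each Folfiri sample. Irf3, which is activated by phosphorylation downstream of the sensors and switches on interferon beta, went from 23.6, 17.2 and 16.6 CPM to 33.8, 28.2 and 32.0 CPM. The difference for Irf3 was 0.71 on the log2 scale (SE 0.135, adjusted p = 0.000610), with no overlap between the groups although control replicate 1 stood above the other two controls. Irf7, the factor that amplifies interferon alpha production, was low in all samples and fell from 2.65 ± 0.203 CPM to 1.70 ± 0.0852 CPM (SD, n = 3 each). The fitted difference of Irf7 was -0.64 log2 units (SE 0.163, adjusted p = 0.00388), and the call was lost with scaling by total counts, where it was -0.37. The exons of Irf1, Irf3 and Irf7 overlap those of Gm17334, Bcl2l12 and Phrf1 on the opposite strand, and the library kit does not mark strand, so reads on shared bases could come from either gene.

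Of the 7 sensors and STING, 6 were tested, and 2 rose, 1 fell and 3 were not called. The 2 were 33.3% and the called genes 50% of these 6, beside 40.3% higher and 79.1% called among all tested genes. Of the 3 not called, Dhx58 and Ddx60 passed the filter through the Folfiri samples alone. Cgas, the DNA sensor that makes the messenger for STING, was at 6.27, 5.72 and 5.96 CPM in controls and at 17.0, 19.2 and 15.7 CPM after Folfiri. Between the groups, Cgas differed by 1.53 log2 units (SE 0.116, adjusted p = 6.46e-07), and every Folfiri sample was well above every control. Tmem173, whose STING protein receives that messenger, was at 86.5, 95.1 and 93.7 CPM in controls and at 82.5, 88.0 and 90.1 CPM after Folfiri. The samples of Tmem173 overlapped and its log2 fold change was -0.08 (SE 0.0719, adjusted p = 0.330). With scaling by total counts its sign turned, to 0.20, and it was called.

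Ddx58, which encodes the RNA sensor RIG-I, was at 21.6, 21.3 and 20.8 CPM in controls and at 30.7, 34.4 and 35.6 CPM after Folfiri (0.66 log2 units, SE 0.0855, adjusted p = 3.58e-05). Controls were nearly alike and Folfiri samples all higher. Ifih1, which encodes MDA5, a sensor of long double-stranded RNA, was at 3.82, 2.52 and 2.16 CPM in controls and at 1.98, 1.48 and 1.76 CPM after Folfiri. For Ifih1 the difference was -0.72 log2 units (SE 0.231, adjusted p = 0.0140), and control replicate 1 was the highest sample. Without control replicate 1 it was -0.43 and without Folfiri replicate 2 it was -0.62, and neither passed the threshold, with adjusted p = 0.0551 and 0.0600, nor did it with scaling by total counts. Promoter matches did not separate these 2 RNA sensors, since the windows of both Ddx58 and Ifih1 held a response element.

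The remaining sensors were scarce. Dhx58, which encodes the regulatory helicase LGP2, was at 0.448 ± 0.0772 CPM in control MTOs and 0.517 ± 0.153 CPM in treated ones (SD, n = 3 each), and Ddx60, a further antiviral helicase, at 0.365 ± 0.316 and 0.406 ± 0.044 CPM. Neither was called, with adjusted p = 0.644 for Dhx58 and 0.958 for Ddx60, and the spread of Ddx60 came from controls between 0.0514 and 0.684 CPM. Zbp1, a sensor of Z-form nucleic acid that can start necroptosis, had 0 counts in each control and 2, 3 and 7 counts in the Folfiri replicates. Set against a floor of 3 counts over the control group, Zbp1 was 3.08-fold higher. A value against this floor is not a confidence limit. Zbp1 was not tested.

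The Ifit, Oas and Mx genes, classic antiviral products that bind or degrade viral RNA or block viral particles, were low throughout, and 5 of the 8 did not pass the filter. Oasl2, an oligoadenylate synthetase-like gene, was at 0.612, 0.640 and 0.668 CPM in controls and at 1.71, 1.55 and 1.33 CPM after Folfiri. Its log2 fold change was 1.26 (SE 0.220, adjusted p = 0.000331), with the groups well apart. Its neighbour on chromosome 5, Oasl1, lies 11005 bases away and was at 5.34 ± 0.503 CPM in control MTOs and 6.02 ± 0.591 CPM in treated ones (SD, n = 3 each). For Oasl1 the estimate was 0.17 log2 units (SE 0.136, adjusted p = 0.257) with overlapping samples, and that of the dynamin-like GTPase Mx1 was 0.24 (SE 0.143, adjusted p = 0.150). Mx1 was at 3.57 ± 0.154 and 4.22 ± 0.433 CPM. Both were called, as higher, with scaling by total counts, at 0.45 for Oasl1 and 0.51 for Mx1. The difference between the changes of Oasl1 and Oasl2 was not tested.

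The 3 Ifit genes encode tetratricopeptide proteins that bind viral RNA and lie in a cluster on chromosome 19, with Ifit1bl1, Ifit3b and Ifit1bl2 between Ifit3 and Ifit1. Ifit1 had 5, 3 and 1 counts in controls and 5, 11 and 12 after Folfiri, a ratio of 2.396 after scaling for library size (exact 95% interval 1.10 to 5.77). Ifit2 had 2, 1 and 0 counts in controls and 7, 7 and 8 after Folfiri, a ratio of 5.65 (1.70 to 29.5). Ifit3 had no control count and 2, 2 and 3 counts after Folfiri, 1.80-fold higher against the floor of 3 counts. These intervals cover counting error only. Where a gene of this cluster has a near-identical copy, the counting may have split its reads. Oas1a, an oligoadenylate synthetase, had 9, 8 and 7 counts in controls and 13, 17 and 9 after Folfiri, a ratio of 1.25 (0.734 to 2.18). Mx2 had 3, 4 and 3 counts and then 3, 11 and 7, a ratio of 1.62 (0.729 to 3.85). In both genes the samples overlapped, so a change was not detectable at this depth. Ifit1, Ifit3 and Oas1a held a response element, at these low levels.

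Of the 11 other antiviral effectors, 8 were tested, and 5 rose, 1 fell and 2 were not called. Gbp2 and Gbp3 passed through the Folfiri samples alone, and 3 of the 6 that passed in both groups rose, beside 38.5% higher among all genes that did so. Gbp2, a guanylate-binding GTPase that attacks the membranes around intracellular pathogens, was at 0.108, 0 and 0.154 CPM in controls and at 3.39, 4.65 and 4.22 CPM after Folfiri. The fitted difference of Gbp2 was 5.54 log2 units (SE 0.399, adjusted p = 4.41e-07), the greatest among the tested interferon-stimulated genes of the list, and it rests on 6 counts over the controls. Gbp3, its neighbour 47392 bases away on chromosome 3, went from 0.324, 0.280 and 0.411 CPM to 3.42, 3.74 and 3.61 CPM. Between the groups, Gbp3 differed by 3.41 log2 units (SE 0.218, adjusted p = 1.93e-07). Both genes went from near absence to a level that was alike in the 3 Folfiri samples, and both promoters printed above hold the response element shortly before the start. Guanylate-binding genes are near-identical copies in part, so the split of reads among them is uncertain.

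Samd9l, an antiviral and growth-restraining factor, was at 2.81, 2.04 and 1.90 CPM in controls and at 8.95, 7.87 and 7.77 CPM after Folfiri (1.84 log2 units, SE 0.166, adjusted p = 2.17e-06). Ifi27, a small mitochondrial protein gene, was at 0.648, 0.640 and 0.617 CPM and then at 2.08, 1.61 and 1.61 CPM (1.46 log2 units, SE 0.222, adjusted p = 0.000116). Ifi35 went from 5.80, 6.68 and 6.43 CPM to 9.96, 9.84 and 10.8 CPM (0.70 log2 units, SE 0.116, adjusted p = 0.000219). In all 3 genes each Folfiri sample lay above each control.

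Isg20, an exonuclease that degrades viral RNA, was the only one of the tested genes of the list to fall by at least 2-fold. It was at 24.3, 26.3 and 24.1 CPM in controls and at 9.49, 8.10 and 9.86 CPM after Folfiri, and its log2 fold change was -1.44 (SE 0.104, adjusted p = 4.48e-07). The groups were far apart, and Isg20 kept its call as lower in each alternative that was run. Bst2 encodes tetherin, which holds budding virus at the cell surface, and was at 17.3, 19.8 and 18.0 CPM in controls and at 19.4, 20.8 and 26.1 CPM after Folfiri. The samples of Bst2 overlapped and its log2 fold change of 0.27 (SE 0.121, adjusted p = 0.0628) was called with scaling by total counts, at 0.54, and with upper quartile scaling, at 0.32. It was also called without control replicate 2, at 0.33, and without Folfiri replicate 1, at 0.35. Eif2ak2 encodes PKR, which stops translation on double-stranded RNA, and was at 46.5, 39.5 and 39.3 CPM in controls and at 38.1, 39.6 and 36.4 CPM after Folfiri. For Eif2ak2 the estimate was -0.14 log2 units (SE 0.0882, adjusted p = 0.176), with overlapping samples, and its sign turned with scaling by total counts. Both Bst2 and Eif2ak2 held both elements in their promoter windows.

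The other 3 effectors were too low to test. Rsad2, which encodes the antiviral enzyme viperin, had 5, 4 and 2 counts in controls and 8, 19 and 26 counts after Folfiri, a ratio of 3.71 (exact 95% interval 1.92 to 7.88). Rtp4 had 2, 3 and 1 counts in controls and 9, 18 and 17 counts after Folfiri, a ratio of 5.65 (2.398 to 16.2). Both had all Folfiri samples above all controls, and Folfiri replicate 1 was the lowest of its group in each. Ifi44 had 1 count over each group and gave no ratio.

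In the ISG15 system, in which ubiquitin-like Isg15 is joined to proteins by Herc6 and removed by Usp18, the modifier rose and the ligase fell. Isg15 was at 0.180, 0.240 and 0.360 CPM in controls and at 0.872, 1.03 and 1.30 CPM after Folfiri. Its log2 fold change was 2.08 (SE 0.328, adjusted p = 0.000151), from 18 to 101 counts over the group, and its mean after Folfiri was 1.07 CPM. Isg15 passed the filter through the Folfiri samples alone. Herc6 was at 12.2, 13.3 and 16.5 CPM in controls and at 9.36, 10.5 and 8.10 CPM after Folfiri. For Herc6 the difference was -0.58 log2 units (SE 0.141, adjusted p = 0.00292), without overlap of the samples, but the call was lost with scaling by total counts, at -0.30. Usp18, which also restrains the type I interferon receptor, was at 3.11 ± 0.473 CPM in control MTOs and 3.14 ± 0.436 CPM in treated ones (SD, n = 3 each) (0.01 log2 units, SE 0.174, adjusted p = 0.968). Trim25, the ubiquitin ligase that activates RIG-I, was at 83.8, 76.1 and 77.7 CPM in controls and at 169, 182 and 159 CPM after Folfiri. The fitted difference of Trim25 was 1.10 log2 units (SE 0.0769, adjusted p = 3.55e-07), and after Folfiri it had the highest CPM of the 41 genes.

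**Figure D2:**
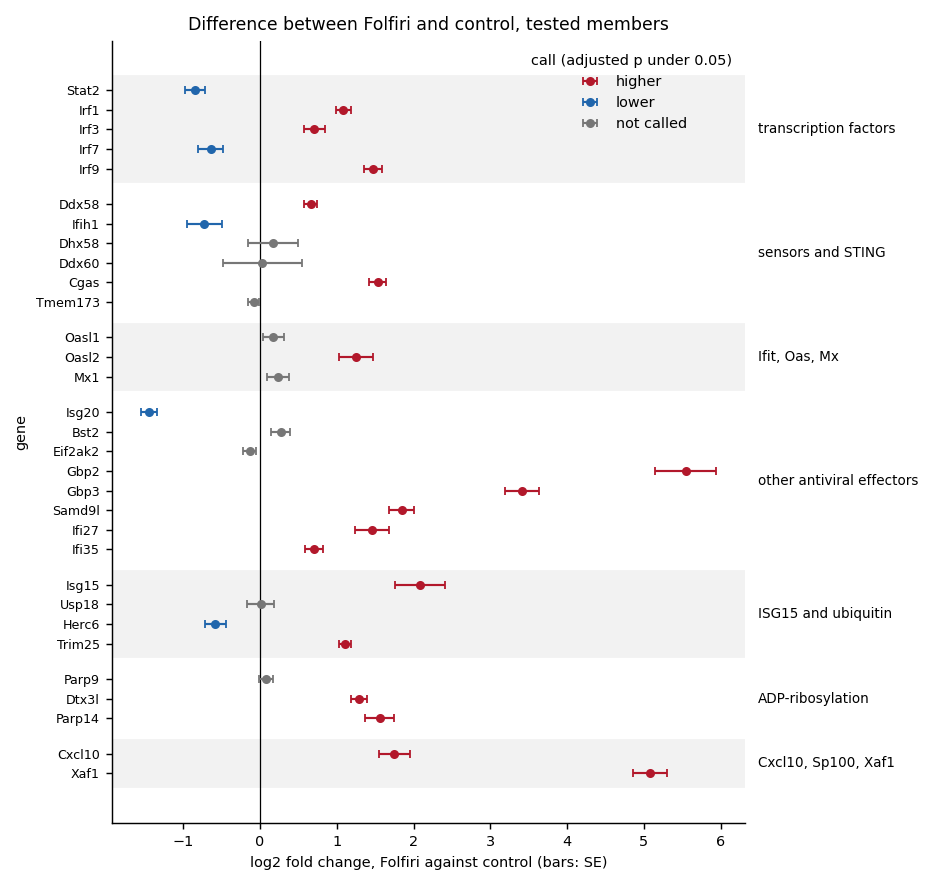
log2 fold change of Folfiri against control for the 31 tested interferon-stimulated genes by role, with bars for the SE and colour for the call. Gbp2, Xaf1 and Gbp3 lie beyond 3 on the right, Isg20 alone lies below -1, and each role with more than 3 tested genes holds at least 1 gene on either side of 0.

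Parp9 and Dtx3l, a mono-ADP-ribosyltransferase and its partner ubiquitin ligase, and Parp14, a further ADP-ribosyltransferase, act in antiviral and DNA damage signalling and lie together on chromosome 16. Dtx3l was at 17.2, 13.8 and 15.4 CPM in controls and at 37.8, 40.9 and 34.9 CPM after Folfiri (1.29 log2 units, SE 0.104, adjusted p = 9.62e-07). Parp14 was at 2.70, 1.48 and 2.06 CPM and then at 6.10, 6.36 and 6.04 CPM (1.56 log2 units, SE 0.192, adjusted p = 2.41e-05). Both rose in every Folfiri sample beyond every control. Parp9 was at 21.4, 18.6 and 18.6 CPM in controls and at 20.5, 20.7 and 20.8 CPM after Folfiri (0.08 log2 units, SE 0.0903, adjusted p = 0.443). Control replicate 1 of Parp9 lay above all Folfiri samples, and with scaling by total counts the gene was called as higher, at 0.35. Parp9 and Dtx3l run away from each other on opposite strands from ends that overlap, with 458 exonic bases in common, 5725 exonic bases for Dtx3l and 4872 for Parp9. Reads on the common bases cannot be told apart, and the difference between the changes of the 2 genes was not tested.

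Xaf1, a gene of apoptosis that counters the caspase inhibitor XIAP, was at 0.360, 0.200 and 0.411 CPM in controls and at 10.5, 10.1 and 12.2 CPM after Folfiri. Between the groups, Xaf1 differed by 5.08 log2 units (SE 0.218, adjusted p = 1.45e-08), and its promoter window held neither element. Xaf1 passed the filter through the Folfiri samples alone, and its difference rests on 23 counts over the controls. Cxcl10, the chemokine that draws T cells through Cxcr3, was at 1.26, 1.76 and 1.13 CPM in controls and at 4.16, 4.45 and 5.46 CPM after Folfiri (1.75 log2 units, SE 0.201, adjusted p = 1.40e-05). Both genes were higher in each Folfiri sample than in each control. The exons of Cxcl10 overlap those of Art3 on the other strand. Sp100, a gene of nuclear bodies, had no control count and 5, 2 and 1 counts after Folfiri, at least 2.05-fold higher.

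Per length, Tmem173 was the most abundant of the 31 tested genes in both groups, at 33.5 CPM per kb of exon in controls and 31.7 CPM per kb after Folfiri. Bst2 at 20.3 and Trim25 at 13.8 CPM per kb came next in controls, and Trim25 at 29.6 and Bst2 at 24.5 CPM per kb after Folfiri. Xaf1 stood in place 29 of 31 in controls, at 0.0691 CPM per kb, and in place 15 after Folfiri, at 2.33 CPM per kb. Gbp2 went from place 31 to place 18, at 0.0347 and 1.62 CPM per kb. Isg20 went from place 4 to place 9, at 13.4 and 4.92 CPM per kb. The genes with the greatest rises thus remained below Tmem173, Trim25, Bst2 and Irf1 after treatment.

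**Figure D3:**
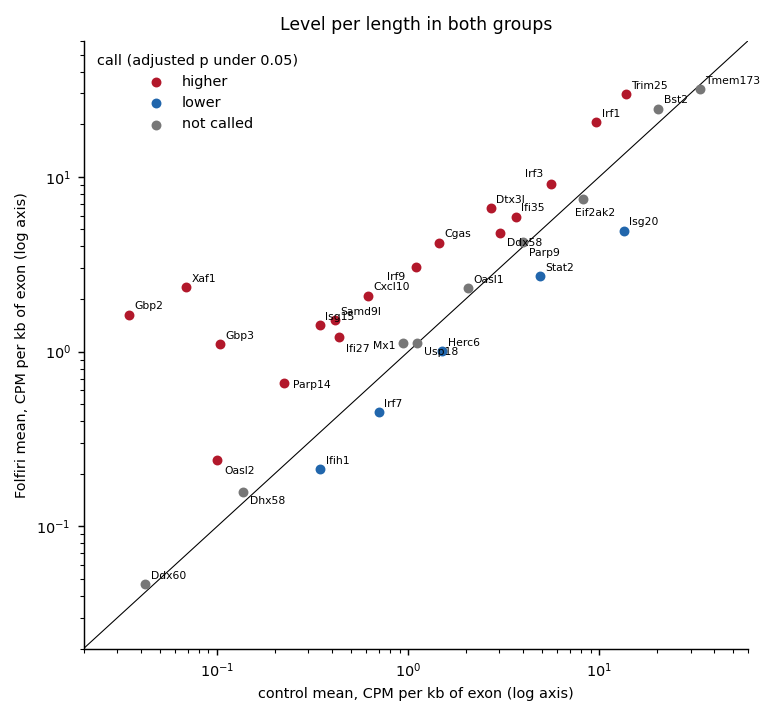
Mean level per length of the 31 tested genes, in CPM per kb of exon, in controls and after Folfiri, on log axes, with colour for the call and a line of equal levels. Xaf1, Gbp2 and Gbp3 lie far above the line at control levels near 0.1 CPM per kb or below, and Tmem173 lies next to it at the upper end.

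Promoter matches were found among genes of every call. Of the 15 genes that rose and had a window, 5 held the response element and 2 the gamma-activated sequence, and 8 held neither, Cgas, Irf9, Trim25 and Xaf1 among them. Of the 5 genes that fell, all with a window, 2 held the response element and 1 the gamma-activated sequence. Of the 9 genes that were tested and not called, 4 had a window (Ddx60, Oasl1, Bst2 and Eif2ak2), and 3 of these held the response element. No test was run on these counts.

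The other genes of the pathway were followed in 6 lists of 155 genes, of which 142 had a row and 105 passed the filter. Of the 105, 65 rose, 24 fell and 16 were not called, so that 61.9% were higher and 84.8% called, beside 40.3% and 79.1% of all tested genes, against which the counts of the single lists are to be read too. Among them, 11 further interferon-stimulated genes and 7 GTPase genes passed the filter through the Folfiri samples alone. All of these rose, so the pooled shares are a description. With scaling by total counts the 24 became 14. Interferon ligands did not pass the filter in any case. Of 21 ligand genes 10 had a row, with 20 counts in all over the controls and 38 over the Folfiri samples, and Ifnz had the most, with 9 and 16. Ifnb1, the first interferon made after most sensors fire, had 1 count over each group. None of these 10 genes thus exceeded 16 counts over a group, before or after Folfiri, and the other 11 were not analysed here.

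Of the 10 receptor chains, kinases and STAT genes, all tested, 6 rose and 3 fell. Ifngr1, the ligand-binding chain of the interferon gamma receptor, went from 19.6 ± 2.12 to 56.9 ± 2.88 CPM (SD, n = 3 each) (1.53 log2 units, SE 0.0942, adjusted p = 1.53e-07). Ifnlr1, of the interferon lambda receptor of epithelia, rose by 0.84 and Ifnar2, of the type I receptor, by 0.81 on the log2 scale. The kinase gene Jak2 fell by 0.48, Jak1 by 0.24 and Tyk2 by 0.21. Of 22 tested sensing adaptors and kinases, 13 rose and 5 fell. Tlr3, the endosomal receptor of double-stranded RNA, rose from 3.18 ± 0.955 to 13.3 ± 1.79 CPM (SD, n = 3 each), and the kinase Ikbke, the factor Irf5 and the adaptor Myd88 rose by 1.90, 1.77 and 1.77 on the log2 scale. The exons of Irf5 and Myd88 overlap those of Tnpo3 and Acaa1a on the other strand, and those of Ifnar2, Tlr3 and Ikbke overlap predicted genes. Tbkbp1, an adaptor of the kinase TBK1, fell by 1.09. Of 14 feedback inhibitors, 7 rose, with Tnfaip3 first at 1.55, and 6 fell, among them Irf2bp2 at -1.04 and Socs3 at -0.94.

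Of 67 further interferon-stimulated genes 48 were tested, and 28 rose and 10 fell. Casp4, the caspase that senses bacterial lipopolysaccharide, rose from 2.02 ± 0.597 to 21.0 ± 1.33 CPM (SD, n = 3 each) (3.35 log2 units, SE 0.171, adjusted p = 4.41e-08). Parp10 rose 5.11-fold and the antibody receptor Trim21 4.13-fold. Uba7, the enzyme that activates Isg15, was 5.27-fold higher, but passed the filter through the Folfiri samples alone. Parp10 shares exon bases with Plec, and Uba7 with a predicted gene, on the same strand. Ido1, the tryptophan-degrading enzyme that interferon gamma induces, went the other way, from 39.6, 48.3 and 40.6 CPM in controls to 3.19, 2.58 and 2.97 CPM after Folfiri. For Ido1 the difference was -3.88 log2 units (SE 0.125, adjusted p = 3.18e-09). Ifitm1, which hinders viral entry, fell from 430 ± 15.2 to 129 ± 14.8 CPM (SD, n = 3 each), and Tent5a and the factor Irf8 each fell by 1.05 on the log2 scale. Of these 48 genes, 11 passed the filter through the Folfiri samples alone, a route that favours genes higher after Folfiri, and all 11 rose. Among the 37 that passed in both groups, 17 rose and 10 fell.

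Of 15 interferon-inducible GTPase genes, the wider family of Gbp2 and Gbp3, 11 were tested. Of these, 7 passed the filter through the Folfiri samples alone, a route that favours genes higher after Folfiri, and all 7 rose. The other 4, Gbp7, Irgm1, Irgm2 and Igtp, passed in both groups and rose, beside 38.5% higher among all genes that did so. Gbp4 went from 0.0798 ± 0.0283 to 4.81 ± 0.387 CPM (SD, n = 3 each) (5.78 log2 units, SE 0.277, adjusted p = 3.03e-08), and Gbp9 rose by 5.15. Irgm2 rose by 2.12 and Igtp by 1.82. Gbp10, named after its values were seen, had no control count and 120 counts after Folfiri, 30.8-fold higher against the floor of 3 counts. Over the 11 genes the median was 5.15 log2 units, and 3.65 with the 3 genes without a control count set against that floor, medians which the filter raised. Over the 4 genes that passed in both groups it was 1.82. Reads of these families may be split among near-identical copies, and Gbp4 with Gbp9 and Irgm2 with Igtp share exon bases on the same strand.

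**Figure D4:**
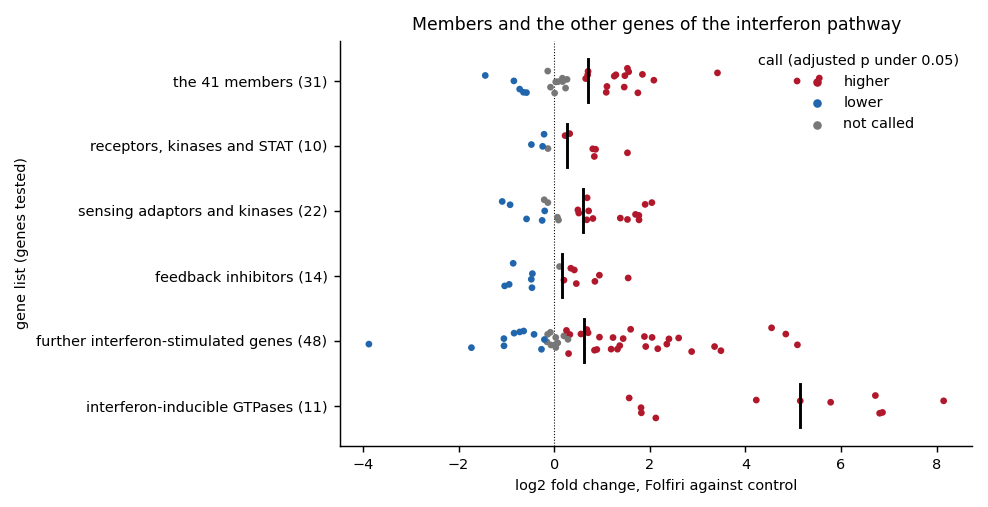
log2 fold change of each tested gene in the 41-gene list and in 5 other lists of the interferon pathway, with colour for the call, a bar for the median and the number of genes tested in parentheses. The 11 GTPase genes lie to the right of 0, 7 of them having passed the filter through the Folfiri samples alone, and Ido1 lies farthest to the left at -3.88.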

How the data were processed

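Poly(A) RNA of 3 control and 3 Folfiri samples was sequenced after a library kit that does not mark strand. Per the labels and the study's methods, the authors aligned reads with STAR (2.5.2 in the submitters' processing notes) to GRCm38, counted them per gene with Rsubread on a GENCODE annotation and deposited raw counts. The strand setting and the treatment of reads with several positions are not given in the sources used here. Of 24190 gene IDs, 24168 matched a symbol in GENCODE vM21, which also gave positions and exon lengths on GRCm38.

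The quasi-likelihood test of edgeR 4.0.16 (R 4.3.3) was run on the deposited counts after filterByExpr at default settings (a minimum count of 10) and TMM scaling, with the group as the only term. P-values were adjusted by Benjamini-Hochberg over all 14692 tested genes, with a threshold of 0.05. The SE is the absolute log2 fold change divided by the root of F. Genes below the filter were given as ratios of summed counts with exact intervals, or against a floor of 3 counts over the group. Values against the floor are not confidence limits. Alternatives were DESeq2 size factors, scaling by total counts or the upper quartile, other filters, the Wald test of DESeq2 1.42.0, a block for the replicate number, leaving out each replicate in turn, and the list without its gene families.

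The 41 genes and the other lists were chosen with earlier results of these data known. All 41 may be named. Values in each sample are given for those called with a change of at least 2-fold or at 10 CPM or more in either group, for genes below the filter, and for Ifih1, added after its values were seen because leaving out a replicate changed its call. Of each pathway list at most 4 genes per direction are named, those with the largest change among called genes with separate groups and a mean of at least 1 CPM. At most 6 promoters are printed, from called genes with the largest change that hold a match. Results for some genes of the pathway and marker lists are not reported here.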

Additional observations from a re-analysis of the deposited data

How the results depend on the processing

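The number of genes that rose, 17 of 31, ranged from 14 of 26 without the gene families to 23 of 41 with no filter. The number that fell ranged from 2 to 5 over all alternatives. With scaling by total counts, which moved the median of all genes by 0.28 on the log2 scale, 2 genes fell in place of 5, and 14 in place of 24 in the other pathway lists, because each change moved up by about that amount. Under that scaling 63.3% of all calls were higher, in place of 51.0%. The median log2 fold change of 0.70 became 0.98 with scaling by total counts, 1.06 over 41 genes with no filter and 1.08 over 41 genes with DESeq2's Wald test, whose sets include the scarce genes. Leaving out 1 replicate at a time gave medians from 0.65 to 0.85, the latter without control replicate 1. Of the 31 tested genes, 19 kept their direction and their side of the threshold under every alternative run.

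Among genes that were not called, signs turned for Tmem173 (0.20) and Eif2ak2 (0.13) with scaling by total counts and for Usp18 (-0.020) with no filter. Without 1 replicate, Dhx58 ranged from -0.054 to 0.38, Ddx60 from -0.38 to 0.85 and Usp18 from -0.089 to 0.15. The cause was not tested.

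Same-numbered samples did not deviate together, with correlations of 0.03, -0.12 and 0.04, so the numbers are not taken as pairs. With a replicate block, 17 genes rose and 5 fell, the median was 0.70, the other pathway genes gave 65 and 21, and all genes 11499 calls in place of 11623. Genes under a few counts per sample, the interferon ligands and Ifi44 among them, are limited by depth.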
